A study of Mus musculus with 16 samples.

Results

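The genes described here make, take up or store cholesterol and fatty acids. They were measured in newborn mouse ovaries that lacked Runx1, Foxl2 or both. The list named 37 genes, and 36 of them had at least 1 probe set on the array that named that gene alone. Soat1 was not analysed here. A gene was read from 1 probe set, the one with the highest mean over all 16 arrays, so that 36 of the 18193 genes tested were members. The rule that names the members uses their pathway and no measured value, although the list was chosen with earlier results of these data known.

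The supporting cells of the fetal ovary, called pre-granulosa cells, express the transcription factors RUNX1 and FOXL2. The study asked what each factor, and both together, maintain in these cells. Gonads of XX mice at P0 (the day of birth) were hybridised to Affymetrix Mouse Genome 430 2.0 arrays, 1 ovary per array and 4 ovaries per genotype. Controls had the genotype Runx1+/f Foxl2+/+ and were Sf1-cre+/+, that is, without the transgene. In Runx1 KO ovaries Runx1 was -/f, Foxl2 was +/+ and the transgene was present (Sf1-cre+/Tg). In Foxl2 KO ovaries Runx1 was +/f, Foxl2 was -/- and the transgene was absent (Sf1-cre+/+). Double knockout (DKO) ovaries combined Runx1-/f with Foxl2-/- and carried Sf1-Cre+/Tg. Every ovary therefore carried a floxed Runx1 allele. Both genotypes that lost Runx1 carried the Cre transgene and a Runx1 null allele and the other genotypes carried neither, so that loss of Runx1 and presence of Cre cannot be told apart. The Sf1 (Nr5a1) promoter drives Cre in somatic cells of the gonad, whereas the Foxl2 alleles were null in the whole animal. The mice were of mixed background.

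Cholesterol is built from acetyl-CoA through mevalonate, squalene and lanosterol. When cells run short of sterol, SREBP transcription factors leave the endoplasmic reticulum and switch on the enzymes of this route and of fatty acid synthesis, and INSIG proteins hold them back when sterol is plentiful. In the ovary cholesterol is also the substrate of steroid hormones, and it arrives from lipoproteins through receptors such as SR-BI as well as from synthesis.

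The targeted genes were read first. Foxl2 intensity was 3588, 4191, 4241 and 2774 in control ovaries, 484, 714, 863 and 890 in Foxl2 KO and 570, 736, 839 and 661 in DKO. No value of either genotype reached the control range, and the differences from control were -2.32 ± 0.20 (log2, SE) for Foxl2 KO and -2.37 ± 0.20 for DKO (limma adjusted p = 8.84e-06 and 5.55e-06). Runx1 intensity was 2238, 2142, 2359 and 2204 in control, 1701, 1221, 932 and 2127 in Runx1 KO and 2370, 2111, 2227 and 2205 in DKO. All 4 Runx1 KO ovaries lay below all controls, but the difference of -0.64 ± 0.19 was not called (adjusted p = 0.398), and DKO ovaries overlapped the controls. The sources used here do not say whether the Runx1 probes lie inside the deleted stretch, so that these values do not check the deletion. One array stood apart. Control replicate 4 had a summed intensity of 12047 over the 4 measured of 8 listed red blood cell genes, against 247 to 580 on the other 15 arrays. Of the 4, Alas2 read 1391 on that array and 148 to 388 on the others. Hba-a1, the only globin gene among them, fell below 16 on some arrays of control, Foxl2 KO and DKO.

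Few of the members differed between genotypes. A gene was called where the limma adjusted p over all genes was under 0.05. Beside each share of members stands the share of all genes tested. In Runx1 KO against control 0 of 36 members were called (0.121% of all genes), in Foxl2 KO 1 was (1.52%), and in DKO 1 was (2.13%). Between DKO and Foxl2 KO 1 member was called (0.0605% of all genes) and between DKO and Runx1 KO 0 were (0.989%). For the interaction, the effect of losing Runx1 without Foxl2 (DKO against Foxl2 KO) minus its effect with Foxl2 (Runx1 KO against control), 0 members were called (0.011%). Only Hsd17b7 and Elovl6 account for these calls. The comparisons with control share the same 4 control ovaries.

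**Figure D1:**
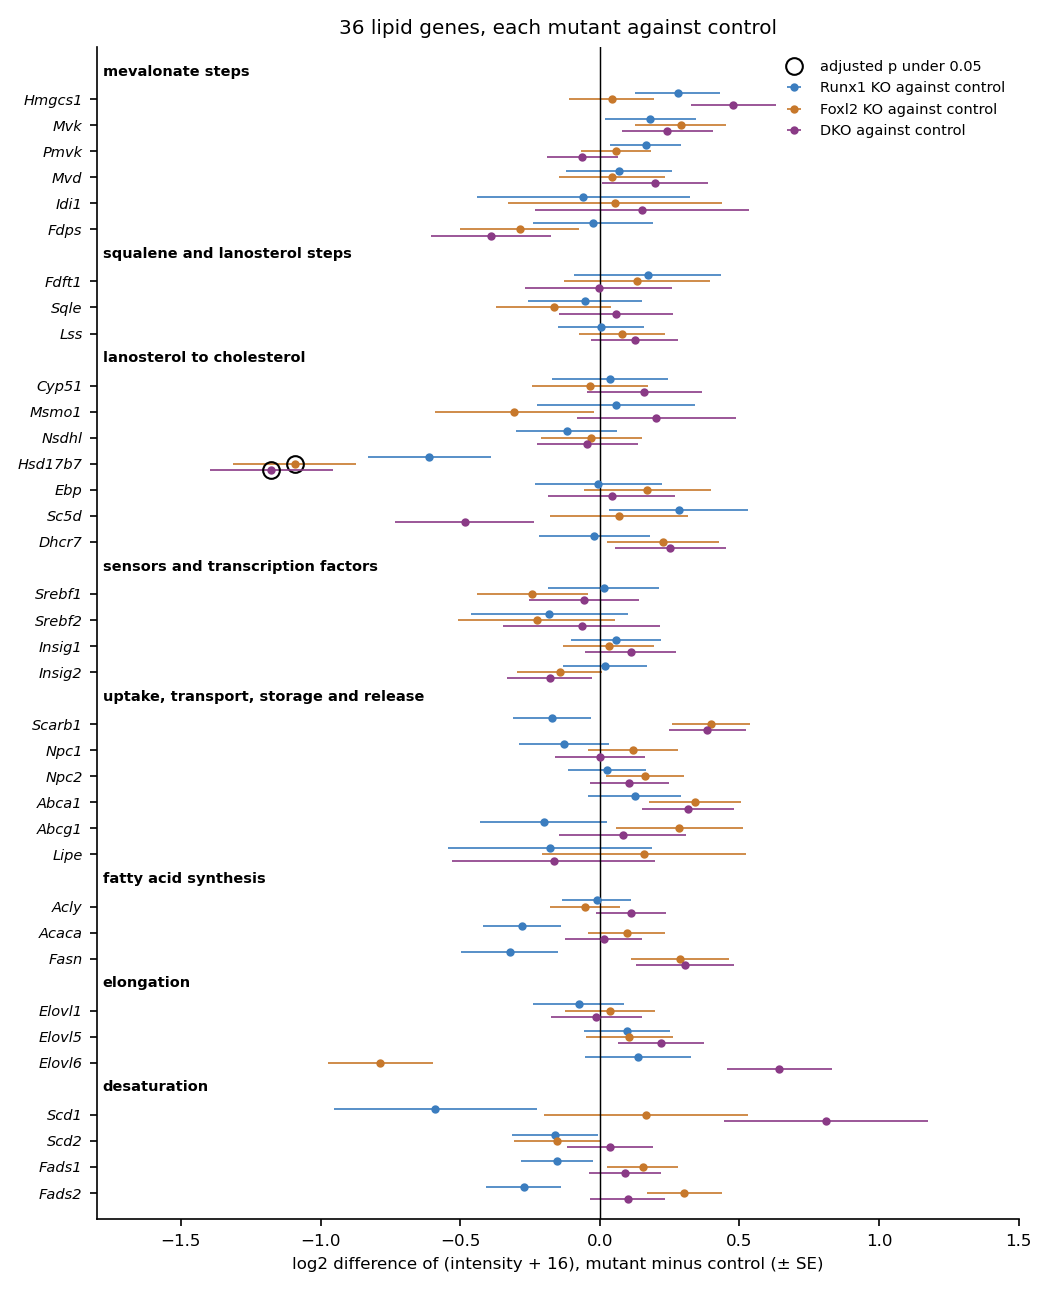
Log2 difference of (intensity + 16) from control, ± SE, for the 36 measured genes in order of role, with 1 point for each mutant genotype (n = 4 ovaries a group). Rings mark the calls at adjusted p under 0.05, which fall on Hsd17b7 in Foxl2 KO (-1.09) and DKO (-1.18), while most of the other points lie close to 0.

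At an unadjusted p under 0.05 there were 1 member in Runx1 KO (2.78%, beside 7.34% of all genes), 4 in Foxl2 KO (11.1%, beside 11%) and 5 in DKO (13.9%, beside 12.4%). There were 3 between DKO and Foxl2 KO (8.33%, beside 5.38%), 7 between DKO and Runx1 KO (19.4%, beside 9.43%) and 3 for the interaction (8.33%, beside 5.33%). Members whose 4 and 4 values did not overlap numbered 0 in Runx1 KO (3.97% of all genes), 3 in Foxl2 KO (8.33%, beside 6.72%) and 4 in DKO (11.1%, beside 7.61%). They numbered 1 between DKO and Foxl2 KO (2.78%, beside 3.57%) and 6 between DKO and Runx1 KO (16.7%, beside 5.93%). The share of members was thus furthest above that of all genes between DKO and Runx1 KO, where none was called. The plain analysis of variance, adjusted over all genes, also called 0 members in Runx1 KO, between DKO and Runx1 KO and for the interaction. The median member differed from control by -0.02 in Runx1 KO, 0.06 in Foxl2 KO and 0.10 in DKO, beside 0.04, 0.05 and 0.04 for all genes. With equal array medians the member median in Foxl2 KO was -0.01.

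The data bound the size of most differences. The 95% interval of the log2 difference lay within 2-fold of control for 34 of 36 members in Runx1 KO, 34 in Foxl2 KO and 32 in DKO. It lay within 1.5-fold for 25, 16 and 19. In whole ovaries, fewer cells of a type and less RNA per cell cannot be told apart.

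**Figure D2:**
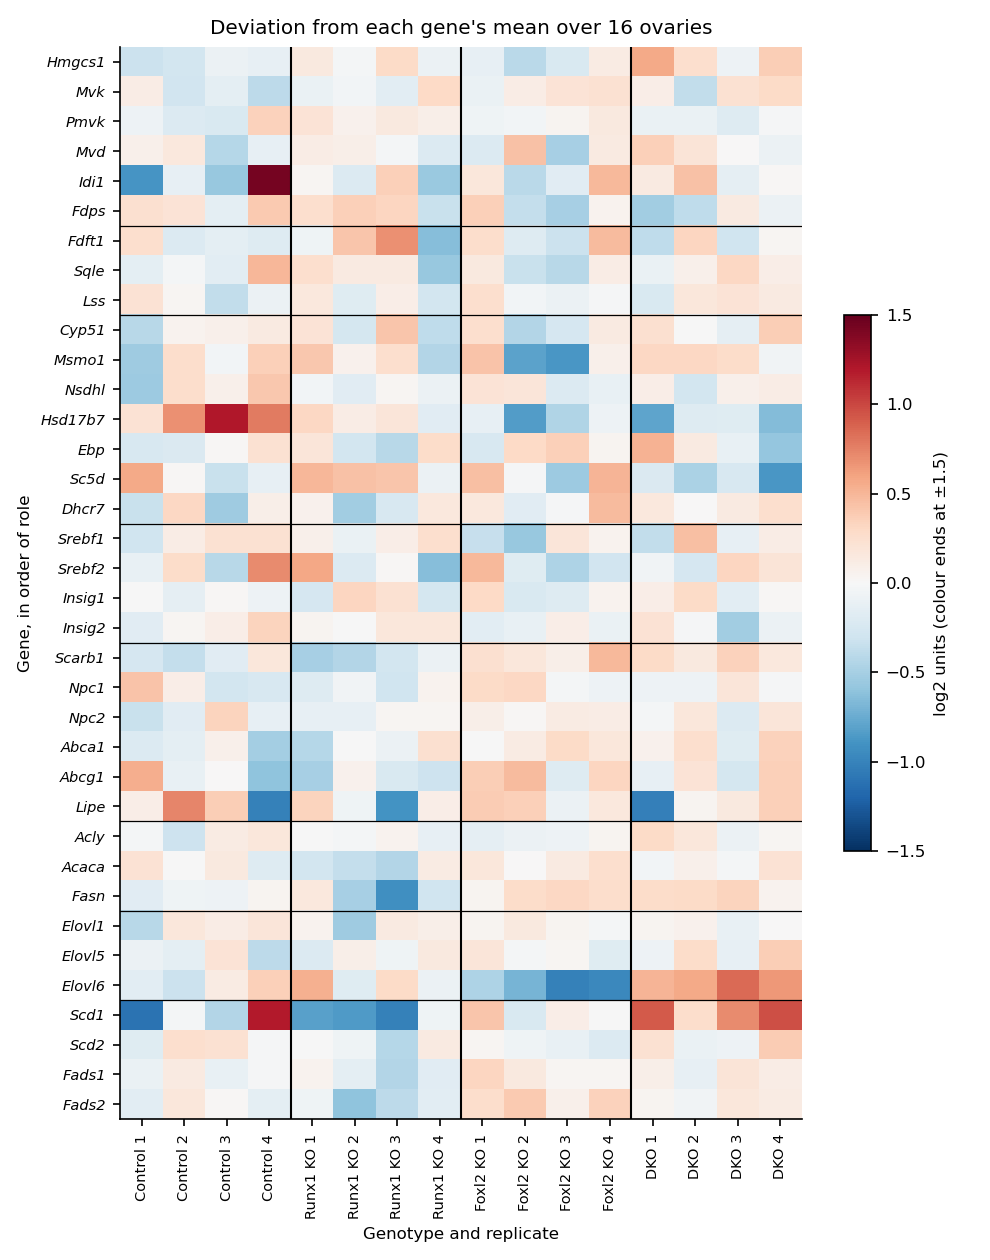
Deviation of log2(intensity + 16) from each gene's mean over the 16 ovaries, for the 36 genes (rows, in order of role) and the ovaries (columns, by genotype and replicate). Hsd17b7 is high in the control columns, Elovl6 is low in the Foxl2 KO columns and high in the DKO columns, and Idi1 and Scd1 are highest in control replicate 4.

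Hsd17b7 was the 1 enzyme of sterol synthesis that was called. It encodes a ketosteroid reductase that acts on the way from lanosterol to cholesterol and can also reduce estrone to estradiol. The promoters of Hsd17b7, of Hmgcs1, a textbook target of the SREBP factors, and of Elovl6, the other called gene, are shown for the bases they hold. Each line gives the 250 bases before the start site (RefSeq, GRCm38.p6), and capitals mark every match of the 6 motifs searched on both strands.
Hsd17b7 (chr1:169969206-169969455, minus strand): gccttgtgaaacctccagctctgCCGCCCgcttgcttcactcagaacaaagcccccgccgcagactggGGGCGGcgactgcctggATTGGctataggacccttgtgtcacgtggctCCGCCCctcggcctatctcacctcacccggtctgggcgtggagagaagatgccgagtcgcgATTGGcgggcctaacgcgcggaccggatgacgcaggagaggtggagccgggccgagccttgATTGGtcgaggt
Hmgcs1 (chr13:119690101-119690350, plus strand): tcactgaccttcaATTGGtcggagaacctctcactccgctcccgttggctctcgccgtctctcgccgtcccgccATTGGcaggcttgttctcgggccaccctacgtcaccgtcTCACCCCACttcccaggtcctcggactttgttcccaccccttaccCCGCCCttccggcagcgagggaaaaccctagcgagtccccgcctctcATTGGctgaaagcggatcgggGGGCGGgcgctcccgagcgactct
Elovl6 (chr3:129532136-129532385, plus strand): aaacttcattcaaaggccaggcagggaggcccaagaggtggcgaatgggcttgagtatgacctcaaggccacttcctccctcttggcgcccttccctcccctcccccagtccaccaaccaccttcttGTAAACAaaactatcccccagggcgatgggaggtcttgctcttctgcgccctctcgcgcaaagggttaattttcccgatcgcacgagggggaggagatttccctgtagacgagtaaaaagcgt

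The motifs were the sterol response element core TCACNCCAC, CCAAT (NF-Y), GGGCGG (Sp1), TGTGGT (RUNX), TGTTTAC (forkhead) and CAAGGTCA (the motif of NR5A receptors). The Hsd17b7 promoter held 3 CCAAT and 3 GGGCGG matches. Among the members with a promoter to search, Hmgcs1 was the only one whose window held the sterol response element core. Elovl6 held 1 forkhead match and none of the others. RefSeq promoters of 250 bases before to 50 after the start were found for 27 of the 36 members (36 promoters). The other 9, which were not searched, were Abcg1, Fads1, Fdft1, Fdps, Npc1, Scarb1, Scd1, Scd2 and Sqle. CCAAT was in 81.2% of the 16 promoters of sterol synthesis members and in 37.4% of all 32851 promoters, and GGGCGG in 81.2% and 35.7%. The sterol response element core was in 6.25% of the sterol promoters and 1.24% of all, TGTGGT in 6.25% and 16.8%, TGTTTAC in 0% and 3.65%, and CAAGGTCA in 6.25% and 1.56%. In the 8 promoters of fatty acid enzyme members TGTGGT was in 37.5%, TGTTTAC in 12.5%, CCAAT and GGGCGG in 50% each, and the other motifs in 0%. With so few promoters, 1 promoter is 12.5%. A match is a description of the letters and not evidence of binding.

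Hsd17b7 intensity was 746, 1043, 1490 and 1115 in control ovaries and 801, 693, 732 and 568 in Runx1 KO. It was 588, 353, 464 and 605 in Foxl2 KO and 364, 558, 562 and 403 in DKO. All Foxl2 KO and DKO ovaries lay below all controls, and the Runx1 KO ovaries overlapped the controls at their lowest. The level fell by 1.09 ± 0.22 (log2, SE; 2.13-fold) in Foxl2 KO and by 1.18 ± 0.22 (2.26-fold) in DKO, with limma adjusted p = 0.0184 and 0.00813. In Runx1 KO the difference was -0.61 ± 0.22 and was not called (adjusted p = 0.545). DKO and Foxl2 KO differed by -0.08, with a 95% interval from -0.55 to 0.39. The call in DKO held without any single array. The Foxl2 KO call did not hold when control replicate 3 was left out (-0.93, adjusted p = 0.0653). Nor did it hold without Foxl2 KO replicate 2 (-0.94, adjusted p = 0.0644) or 3 (-1.07, adjusted p = 0.0551).

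Hsd17b7 had 4 probe sets. Those ranked 2 and 3 by level gave differences of -1.14 and -1.11 in Foxl2 KO and of -1.25 and -1.06 in DKO. The one lowest in mean level, at intensities of 27.7 to 103, gave 0.13 and 0.26. When they stood for the gene, the second kept both calls (adjusted p = 0.00908 and 0.00314) and the third missed them (0.0707 and 0.0738). Thus 3 of the 4 probe sets gave differences of like size. The markers of supporting cells moved in the same ovaries. Of 11 pre-granulosa markers 4 were called lower in Foxl2 KO and 6 in DKO, and 0 higher. In each of the 2 genotypes 4 of the 11 were above 0, 2 of them at an unadjusted p under 0.05. The summed intensity of the 11 markers ran from 17225 to 23401 in control, 13688 to 15619 in Foxl2 KO and 11651 to 13303 in DKO. Foxl2, deleted in both genotypes, is one of these markers. Without it 3 of 10 were called lower in Foxl2 KO and 5 of 10 in DKO, and the sums ran from 14450 to 19160 in control, 12798 to 14756 in Foxl2 KO, overlapping the controls, and 10812 to 12642 in DKO. Of 9 Sertoli markers 5 were called higher in each, while 1 was lower in Foxl2 KO (-0.86, unadjusted p under 0.05) without being called. The summed intensities of the 9 were 4413 to 6339 in control, 4329 to 6548 in Foxl2 KO and 7020 to 7490 in DKO. Of the 9, the values of Amh fell below 16 on some arrays of every genotype. The part of the supporting cells in the fall of Hsd17b7 was not tested.

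**Figure D3:**
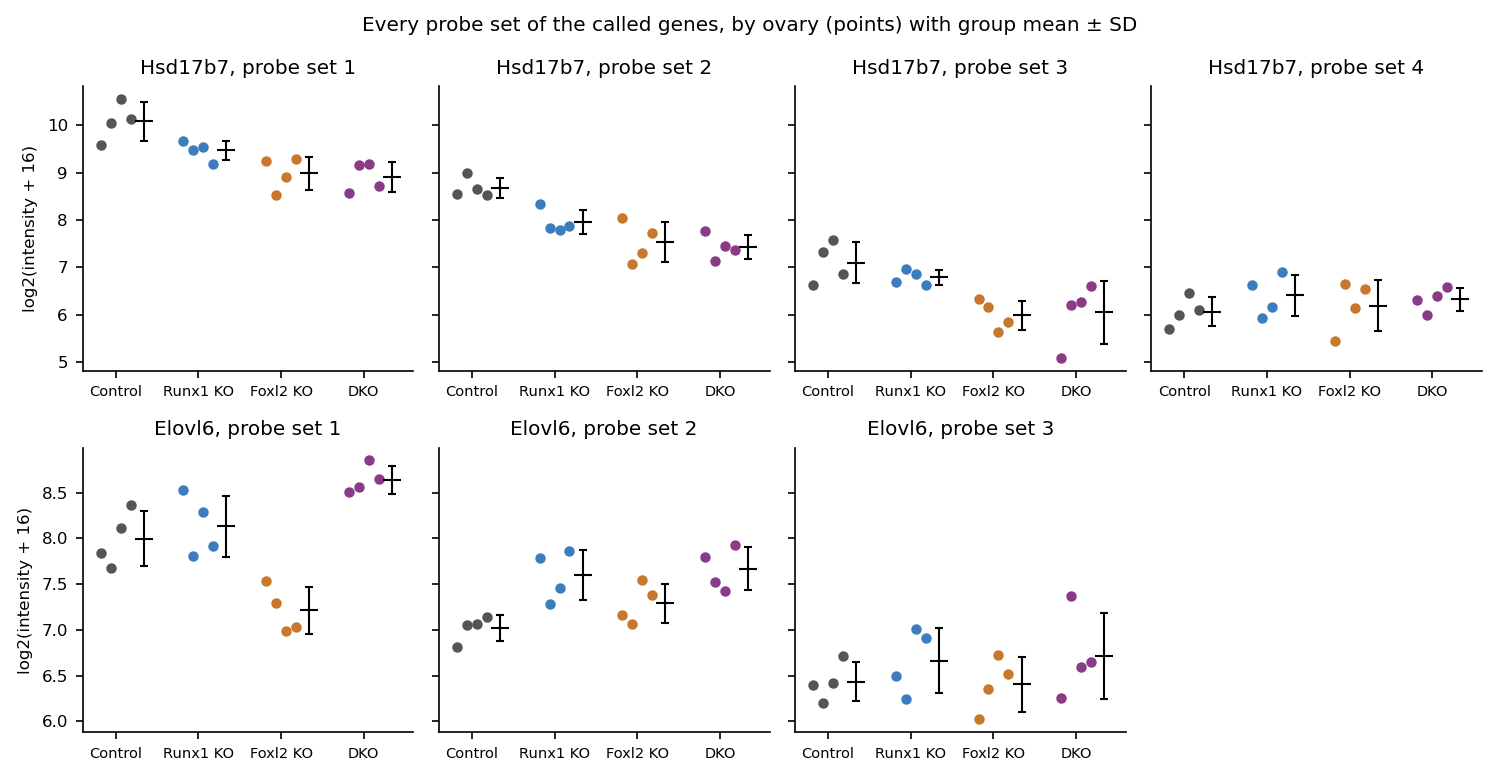
Level of each probe set of Hsd17b7 (top, 4 probe sets) and Elovl6 (bottom, 3) on the log2(intensity + 16) scale, with 1 point per ovary and the group mean ± SD (n = 4) beside the points. The first 3 Hsd17b7 probe sets are lower in Foxl2 KO and DKO than in control, whereas the low values of Elovl6 in Foxl2 KO are seen on its first probe set alone.

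The mevalonate steps did not move as a group. Hmgcs1, which encodes the synthase that makes HMG-CoA, had intensities of 5543, 5734, 6529 and 6354 in control, 7675, 6784, 8446 and 6513 in Runx1 KO, 6358, 5245, 5888 and 7563 in Foxl2 KO and 10245, 8256, 6556 and 8984 in DKO. All DKO ovaries lay above all controls, by 0.48 ± 0.15 in the mean, which was not called (adjusted p = 0.149). Fdps, which makes farnesyl diphosphate, read 387, 378, 292 and 432 in control, 389, 422, 409 and 255 in Runx1 KO, 419, 251, 225 and 336 in Foxl2 KO and 221, 246, 359 and 303 in DKO. Its groups overlapped, and the DKO difference was -0.39 ± 0.21 (adjusted p = 0.505). The differences of the 6 mevalonate genes from control, in any genotype, ran from -0.39 to 0.48. Idi1, which isomerises the isoprene unit, reached 4014 in control replicate 4, against 789 to 1350 in the other controls. That array had the high sum of red blood cell genes.

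The squalene and lanosterol steps likewise showed no called member. Sqle, the squalene epoxidase, read 631, 685, 625 and 991 in control, 835, 768, 772 and 465 in Runx1 KO, 774, 551, 519 and 758 in Foxl2 KO and 650, 739, 871 and 753 in DKO. Lss, which closes the rings to lanosterol, read 1121, 976, 737 and 905 in control, 1069, 845, 1033 and 792 in Runx1 KO, 1149, 929, 901 and 951 in Foxl2 KO and 816, 1085, 1110 and 1057 in DKO. The values of both overlapped between all genotypes. Differences of the 3 genes, with Fdft1, from control lay between -0.17 and 0.17.

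Beside Hsd17b7, the lanosterol to cholesterol enzymes showed a lower Sc5d in DKO that was not called. Sc5d, a sterol desaturase, read 578, 391, 303 and 353 in control, 550, 528, 518 and 363 in Runx1 KO, 534, 382, 259 and 556 in Foxl2 KO and 330, 273, 324 and 203 in DKO. Every DKO ovary lay below every Runx1 KO ovary, while the other pairs of groups overlapped. The difference of DKO from Runx1 KO was -0.77 ± 0.25 (adjusted p = 0.229), from control -0.48 ± 0.25 (adjusted p = 0.462). Cyp51, Msmo1, Nsdhl, Ebp and Dhcr7 differed from control by -0.31 to 0.25.

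Sterol synthesis was also read ovary by ovary. For each ovary the deviations of the 16 sterol synthesis enzymes from their means over all ovaries were averaged. The group means of this score ran from -0.04 to 0.03, and the single ovaries spanned 0.42 within Foxl2 KO and 0.05 within DKO. Foxl2 KO replicates 1 and 4 scored 0.11 and 0.17, with 10 and 13 of 16 genes above their mean, and replicates 2 and 3 scored -0.19 and -0.25, with 4 and 3 above. The same ovaries were spread in oocyte markers, whose score over 10 genes was 0.40, -0.10, -0.37 and 0.26 in replicates 1 to 4. The oocyte scores spanned 0.77 in Foxl2 KO, 0.96 in control and 0.80 in Runx1 KO. Control replicate 4 had the lowest oocyte and the highest sterol score of its group, and Runx1 KO replicate 4 the lowest of both. Control replicates 1 to 4 had oocyte scores of 0.34, 0.06, -0.15 and -0.62 and sterol scores of -0.11, 0.04, -0.11 and 0.23. In Runx1 KO the oocyte scores were 0.04, 0.50, 0.57 and -0.22 and the sterol scores 0.16, -0.001, 0.16 and -0.19. In DKO the oocyte scores spanned 0.55. The oocyte RNA's part in the sterol score was not tested. The 4 DKO ovaries scored from -0.04 to 0.01.

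**Figure D4:**
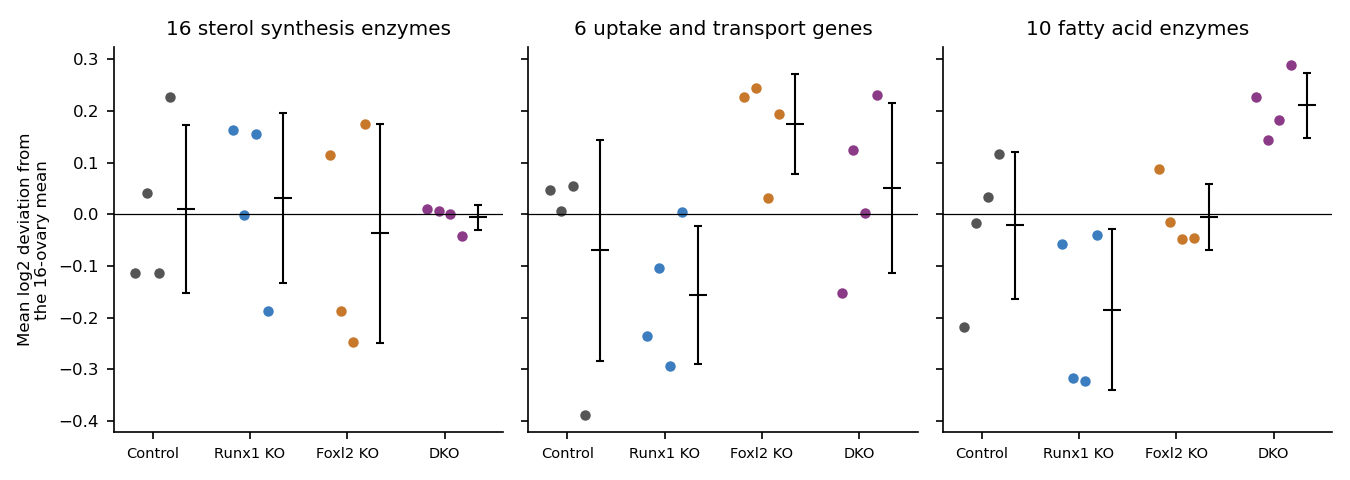
Mean log2 deviation from the 16-ovary mean over the sterol synthesis enzymes (16 genes), the uptake and transport genes (6) and the fatty acid enzymes (10), with 1 point per ovary and the group mean ± SD (n = 4). Genotypes overlap for sterol synthesis, and for the fatty acid enzymes all 4 DKO ovaries (0.14 to 0.29) lie above all other ovaries (-0.32 to 0.12). Scd1 (0.81) and Elovl6 (0.64) had the largest differences from control in DKO, where the median of the 10 was 0.11, beside 0.10 in Foxl2 KO.

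The sensors of the pathway did not differ detectably. Srebf1, which encodes the SREBP form tied most to fatty acid genes, read 255, 344, 376 and 376 in control, 336, 296, 342 and 380 in Runx1 KO, 246, 209, 361 and 331 in Foxl2 KO and 242, 438, 289 and 344 in DKO. Insig2 read 1090, 1256, 1319 and 1549 in control, 1264, 1222, 1385 and 1378 in Runx1 KO, 1093, 1138, 1318 and 1140 in Foxl2 KO and 1429, 1208, 850 and 1151 in DKO. The groups overlapped for both. Srebf1, Srebf2, Insig1 and Insig2 differed from control by -0.24 to 0.11, and for all 4 of them the 95% interval lay within 2-fold in each genotype.

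Genes of uptake, transport and release were read next. Scarb1, which encodes the lipoprotein receptor SR-BI, read 389, 362, 412 and 525 in control, 325, 341, 384 and 437 in Runx1 KO, 554, 528, 495 and 660 in Foxl2 KO and 571, 520, 595 and 521 in DKO. All DKO ovaries lay above all Runx1 KO ovaries, and control replicate 4 alone among the controls reached the Foxl2 KO and DKO range. The differences from control were 0.40 ± 0.14 in Foxl2 KO and 0.39 ± 0.14 in DKO and were not called (adjusted p = 0.246 and 0.228). DKO exceeded Runx1 KO by 0.56 ± 0.14 (adjusted p = 0.0804), and this was called once control replicate 4 was left out of the fit (0.56, adjusted p = 0.0458).

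Abca1, the exporter of cholesterol to lipoproteins, read 2018, 2104, 2466 and 1638 in control, 1726, 2321, 2194 and 2767 in Runx1 KO, 2328, 2552, 2859 and 2619 in Foxl2 KO and 2445, 2783, 2054 and 2963 in DKO. Its groups overlapped, with a difference of 0.34 ± 0.17 in Foxl2 KO (adjusted p = 0.474). The other members of this role are Npc1 and Npc2, which move cholesterol out of lysosomes, the exporter gene Abcg1 and Lipe, a lipase that also splits cholesterol esters. All 6 genes had a difference above 0 in Foxl2 KO, from 0.12 to 0.40 with a median of 0.22, where 58.9% of all genes did. None of them was called, and 1 had an unadjusted p under 0.05. Without control replicate 4, the array with the high sum of red blood cell genes, 5 of the 6 were above 0. They then ran from -0.19 to 0.50, and the median fell to 0.12. The mean deviation of the 6 genes was -0.39 on that array and 0.05, 0.01 and 0.06 on the other controls.

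**Figure D5:**
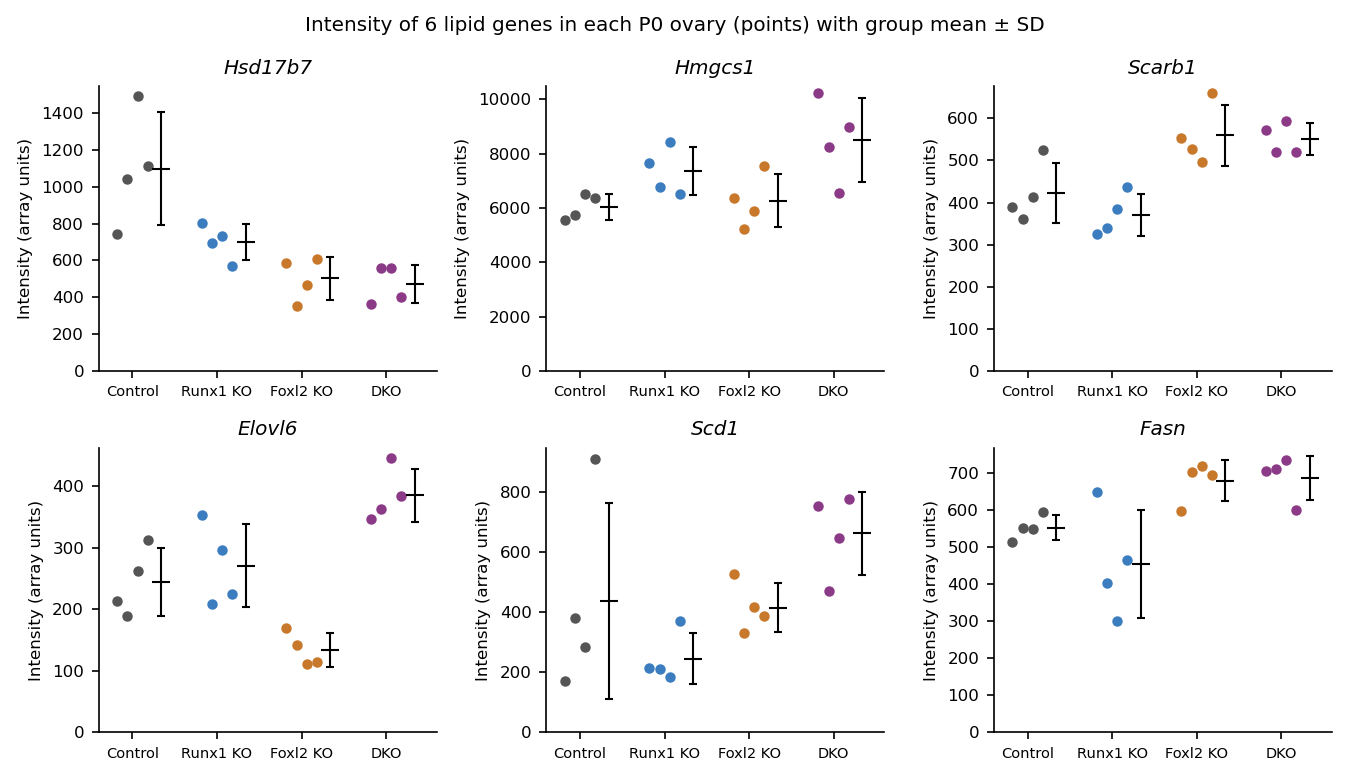
Intensity (array units, axis from 0) of Hsd17b7, Hmgcs1, Scarb1, Elovl6, Scd1 and Fasn in each ovary (points) with the group mean ± SD (n = 4). Hsd17b7 is lowest in Foxl2 KO and DKO, Elovl6 separates DKO (347 to 446) from Foxl2 KO (111 to 170), and control replicate 4 is the highest Scd1 value at 908.

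Among fatty acid enzymes Elovl6 was called. It encodes the elongase that lengthens palmitate to stearate. Its intensity was 213, 188, 261 and 312 in control and 354, 208, 295 and 225 in Runx1 KO. It was 170, 141, 111 and 114 in Foxl2 KO and 347, 363, 446 and 384 in DKO. Every Foxl2 KO ovary lay below and every DKO ovary above all controls. DKO exceeded Foxl2 KO by 1.43 ± 0.19 (log2, SE; 2.69-fold; adjusted p = 0.00757), and this call held without any single array (adjusted p from 0.0061 to 0.0366).

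Against control, Elovl6 differed by -0.79 ± 0.19 in Foxl2 KO and by 0.64 ± 0.19 in DKO, and neither was called (adjusted p = 0.052 and 0.109). The first was called when control replicate 2 (-0.89) or Foxl2 KO replicate 1 (-0.89) was left out, with adjusted p = 0.0434 and 0.0448. It was also called when Runx1 KO replicate 1 or 2 was left out of the shared fit (-0.79 in both, adjusted p = 0.0414 and 0.0454). The interaction was 1.29 ± 0.27 and was not called (adjusted p = 0.296). The result rests on 1 of 3 probe sets. The second read 96, 116, 118 and 125 in control, 127, 118, 171 and 150 in Foxl2 KO and 206, 168, 156 and 228 in DKO, and gave 0.27 for Foxl2 KO and 0.38 for DKO against Foxl2 KO (adjusted p = 0.889 when it stood for the gene). The third gave -0.03 and 0.31 (adjusted p = 1.00 for the latter). On the mean of the 3 probe sets DKO exceeded Foxl2 KO by 0.71, which was not called (adjusted p = 0.0797). The second probe set gave 0.65 for DKO against control, close to the 0.64 of the first. It read 204, 139, 160 and 217 in Runx1 KO, 0.58 above control (limma adjusted p = 0.345). DKO exceeded Runx1 KO on it by 0.07. On the first probe set Runx1 KO differed from control by 0.14, and DKO exceeded Runx1 KO by 0.51. Why the probe sets differ was not tested.

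The desaturase Scd1, which makes oleate from stearate, read 172, 380, 284 and 908 in control, 215, 209, 185 and 372 in Runx1 KO, 526, 329, 418 and 387 in Foxl2 KO and 754, 470, 647 and 775 in DKO. All DKO ovaries lay above all Runx1 KO ovaries, and control replicate 4 lay above every other ovary. The difference of DKO from Runx1 KO was 1.40 ± 0.36 and was not called (adjusted p = 0.101). It was called without control replicate 1 (1.40, adjusted p = 0.0464) or control replicate 4 (1.40, 0.0143), and without control replicate 4 so was DKO against control (1.24, adjusted p = 0.0333, from 0.81 ± 0.36 and 0.376 with it).

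Fasn, the fatty acid synthase, read 515, 551, 549 and 595 in control, 648, 404, 299 and 466 in Runx1 KO, 598, 702, 720 and 696 in Foxl2 KO and 704, 710, 735 and 600 in DKO. All Foxl2 KO and DKO ovaries lay above all controls, by 0.29 ± 0.17 and 0.30 ± 0.17, differences that were not called (adjusted p = 0.608 and 0.529). DKO exceeded Runx1 KO by 0.63 ± 0.17 (adjusted p = 0.129), which was called without Runx1 KO replicate 1 (0.81, adjusted p = 0.02). That ovary held the 1 Runx1 KO value within the DKO range.

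Acaca, which makes malonyl-CoA, read 823, 701, 778 and 615 in control, 578, 544, 516 and 769 in Runx1 KO, 791, 709, 772 and 839 in Foxl2 KO and 683, 743, 689 and 823 in DKO. Fads2, a desaturase of polyunsaturated fatty acids, read 596, 752, 677 and 600 in control, 636, 436, 505 and 596 in Runx1 KO, 808, 881, 708 and 854 in Foxl2 KO and 686, 645, 751 and 728 in DKO. The 3 lowest Acaca values and the 2 lowest Fads2 values of all 16 were Runx1 KO ovaries. Elovl5, an elongase of polyunsaturated fatty acids, overlapped throughout, with 5809, 5551, 7107 and 4678 in control, 5345, 6563, 5875 and 6835 in Runx1 KO, 7010, 6022, 6266 and 5447 in Foxl2 KO and 5861, 7476, 5663 and 7933 in DKO. DKO exceeded Runx1 KO by 0.29 ± 0.14 for Acaca, 0.37 ± 0.13 for Fads2 and 0.12 ± 0.15 for Elovl5, and none of these was called (adjusted p = 0.533, 0.324 and 0.896).

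Over the 10 fatty acid enzymes the mean deviation was lowest in Runx1 KO and highest in DKO. All 10 had a DKO minus Runx1 KO difference above 0, from 0.06 (Elovl1) to 1.40 (Scd1) with a median of 0.27, where 52.9% of all genes were above 0 and the median gene differed by 0.02. None of the 10 was called and 4 had an unadjusted p under 0.05. The count was 10 with equal array medians and with quantile normalization. It was 9 without Runx1 KO replicate 2 and 10 without any other Runx1 KO or DKO array, with medians from 0.19 to 0.34. Control and Foxl2 KO arrays do not enter these differences, so leaving them out cannot change the count. The mean deviation of the 10 was -0.06, -0.32, -0.32 and -0.04 in Runx1 KO and 0.23, 0.14, 0.18 and 0.29 in DKO. Control ovaries scored -0.22, -0.02, 0.03 and 0.12, and Foxl2 KO ovaries 0.09, -0.02, -0.05 and -0.05. Against control 8 of the 10 were below 0 in Runx1 KO and 9 were above 0 in DKO. The median difference from control was 0.11 in DKO and 0.10 in Foxl2 KO. The largest differences in DKO were those of Scd1 (0.81) and Elovl6 (0.64). In Foxl2 KO 7 of the 10 were above 0, and Elovl6 was the lowest (-0.79). Markers of supporting cells moved between the same genotypes, with 4 of 11 pre-granulosa markers called lower in DKO than in Runx1 KO (3 of 10 without Foxl2) and 4 of 9 Sertoli markers called higher. Of the 11 pre-granulosa markers 4 were above 0, 2 of them at an unadjusted p under 0.05. The score of the oocyte markers also varied, at 0.04, 0.50, 0.57 and -0.22 in Runx1 KO replicates 1 to 4. In DKO it was -0.52, 0.03, -0.08 and -0.13, and 0 of these 10 markers were called. The part of any of these cells in the difference of the fatty acid enzymes was not tested. Of the 4 measured of 5 listed fat cell markers 0 were called, and 0 had an unadjusted p under 0.05 in any comparison. Cidec and Lep fell below 16 on some arrays of every genotype, and the summed intensity ran from 74.8 to 386 in control, 141 to 769 in Runx1 KO, 162 to 291 in Foxl2 KO and 78.6 to 387 in DKO.

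Of 49 further genes of sterol and fatty acid metabolism 42 were measured. Against control 0 were called in Runx1 KO, 2 in Foxl2 KO (1 in each direction) and 3 in DKO (1 up and 2 down). There were 2 calls between DKO and Runx1 KO, both lower in DKO, and 0 between DKO and Foxl2 KO or for the interaction. At an unadjusted p under 0.05 there were 5 in Runx1 KO (11.9%, beside 7.34% of all genes), 8 in Foxl2 KO (19%, beside 11%) and 9 in DKO (21.4%, beside 12.4%). There were 12 between DKO and Runx1 KO (28.6%, beside 9.43%), 1 between DKO and Foxl2 KO (2.38%, beside 5.38%) and 1 for the interaction (2.38%, beside 5.33%). Mlxipl, which encodes the glucose-responsive factor ChREBP, rose from 49.9 to 56.1 in control to 76.8 to 159 in Foxl2 KO and 124 to 236 in DKO, by 0.93 ± 0.21 and 1.28 ± 0.21 (adjusted p = 0.0346 and 0.00285). It read 81.6 to 126 in Runx1 KO, also above all controls. Elovl2, an elongase of very long polyunsaturated chains, fell from 199 to 415 in control to 45.5 to 123 in Foxl2 KO and 97.3 to 159 in DKO (-1.70 ± 0.28 and -1.12 ± 0.28, adjusted p = 0.00366 and 0.0488). No Foxl2 KO or DKO value of Elovl2 reached the control range.

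Agpat2, an enzyme of phosphatidic acid synthesis, fell by 0.47 ± 0.11 in DKO, from 249 to 285 in control to 168 to 195 (adjusted p = 0.0387). Vldlr, a lipoprotein receptor, was at 573 to 963 in Runx1 KO and 299 to 492 in DKO, a difference of -1.03 ± 0.20 (adjusted p = 0.0189). Cyp27a1, the sterol hydroxylase of mitochondria, was at 64.8 to 137 in Runx1 KO and 6.29 to 38.2 in DKO (-1.41 ± 0.31, adjusted p = 0.0388). The values of these genes did not overlap in the comparisons named. The Cyp27a1 value of 6.29 lay below the offset of 16. Vldlr had 6 probe sets and Cyp27a1 2, and only the brightest of each was read. The calls of these further genes were not examined under other offsets, probe sets or left-out arrays.

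Genes that use cholesterol for steroid hormones were read for their place downstream. Of 5 measured of 6 listed markers of steroid-making cells Hsd3b1, which makes progesterone from pregnenolone, was called lower in all mutants, at 2347 to 3217 in control, 830 to 1159 in Runx1 KO, 620 to 972 in Foxl2 KO and 402 to 769 in DKO. The differences were -1.53 ± 0.20, -1.86 ± 0.20 and -2.19 ± 0.20 (adjusted p = 0.00382, 0.000131 and 1.71e-05). Star, which carries cholesterol into mitochondria, read 429 to 622 in control, 413 to 670 in Runx1 KO, 461 to 753 in Foxl2 KO and 379 to 699 in DKO. Its groups overlapped. Cyp11a1 read 134 to 217 in control, 108 to 174 in Runx1 KO, 129 to 359 in Foxl2 KO and 83.4 to 148 in DKO. Cyp17a1 read 21.7 to 49.9, 27.9 to 45.3, 29.6 to 60.4 and 10.1 to 66.5 in the same order. Neither was called in any comparison. Against control 4 of the 5 markers were above 0 in Foxl2 KO, with a median of 0.36, and Hsd3b1 alone was below. In Runx1 KO and in DKO 2 of the 5 were above 0. Nr5a1, which encodes SF1 and whose promoter drove the Cre, was higher in DKO (1396 to 1824) than in control (570 to 773) by 1.34 ± 0.15 and than in Foxl2 KO (762 to 903) by 0.96 ± 0.15 (adjusted p = 8.63e-05 and 0.0215). In Runx1 KO, the other group with the transgene, it read 858 to 1324, above all controls and below all DKO ovaries, and the difference from control of 0.77 ± 0.15 was not called (adjusted p = 0.0718). Whether the transgene adds to the Nr5a1 signal cannot be told apart from loss of Runx1 in these groups.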

How the data were processed

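RNA of 16 single P0 ovaries (PicoPure, 50 ng amplified) was hybridised to 1-colour arrays. The deposited values are linear intensities made by the authors with Affymetrix Expression Console 1.2 and scaled so that the 2% trimmed mean of each array was 500; the summarisation algorithm and build are not given in the sources used here, and no detection calls were used. Array medians ran from 134 to 177, and 4 arrays a group limit the precision. Of 45101 probe sets 34945 named 1 gene, 932 several, 9160 none and 64 were controls. Each gene was read from the probe set of highest average on the log2(intensity + 16) scale. Differences are on that scale, which understates those of dim genes. limma 3.58.1 (R 4.3.3) fitted 4 group means over 18193 genes, with two-sided tests and Benjamini-Hochberg adjustment within each of 6 comparisons. Scripts were tested on simulated data. The study's methods tested RMA values by analysis of variance (p under 0.05, 1.5-fold), which was run here as an alternative on the deposited values. Members and lists were chosen with earlier results of these data known. Members called in any comparison, and the 2 of each role with the smallest p against control, are given by ovary. Other normalizations, offsets, probe set rules, priors and left-out arrays are in the closing section. Samples were grouped by their labels.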

Additional observations from a re-analysis of the deposited data

Results flagged for a closer look

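Of 64 groups of 4 ovaries (16 described genes in 4 genotypes), 4 held 1 value far from the other 3, judged by its gap to the nearest value as a share of the group's whole range. Chance flags about 1 in 20 groups. Runx1 KO replicate 4 was the low value for Sc5d (share 0.853, intensity 363), Fdps (0.840, 255) and Sqle (0.858, 465). DKO replicate 1 was the low value for Lss (0.842, 816). The cause was not tested.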

How the results depend on the processing

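All 6 counts of called members stayed within 1.5 times under equal array medians, quantile normalization, an offset of 1, no _s_at or _x_at probe sets, the adjusted analysis of variance and the replicate block. In Foxl2 KO against control the count went from 1 to 2 with an offset of 50 or a trended robust prior (Elovl6 joined Hsd17b7) and to 0 with only the groups compared (Hsd17b7, adjusted p = 0.0881). Between DKO and Foxl2 KO it went from 1 to 0 on the mean of all probe sets and among genes above the median level, where Elovl6 was not tested. Between DKO and Runx1 KO it went from 0 to 2 among genes above the median level (Scarb1, Scd1) and to 1 with only the groups compared (Scd1). The methods' analysis of variance at an unadjusted p under 0.05 and 1.5-fold gave 1 member in Runx1 KO, 2 in Foxl2 KO, 2 in DKO, 3 between DKO and Runx1 KO and 3 for the interaction. Leaving out each array gave 0 to 2 members in Foxl2 KO, 1 to 2 in DKO, 1 between DKO and Foxl2 KO, 0 to 2 between DKO and Runx1 KO and 0 in the others.

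Equal numbers do not pair the ovaries: 1 of 24 same-numbered pairs had a residual correlation above 0.1. The replicate block kept the members called at 0, 1, 1, 1, 0 and 0, and moved all calls in Foxl2 KO from 276 to 220. With another probe set for the gene, an alternative chosen after seeing the data (as were leaving control replicate 4 out of the uptake genes and Foxl2 out of its marker list), Elovl6 turned to 0.27 in Foxl2 KO and to -0.20 for the interaction on its next brightest, and Hsd17b7 to 0.34 in Runx1 KO, 0.13 in Foxl2 KO and 0.26 in DKO on its dimmest; the cause was not tested. Equal medians or quantiles moved the all-gene median by at most 0.08. Members read from 32.6 to 10245 on single arrays, Lipe being the dimmest by group mean; the deposited values carry no background level, so signal over background is unknown.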
